A study of Rattus norvegicus with 12 samples.

Results

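A set of 5 miRs often read in circulating extracellular vesicles (EVs) and used as serum references, namely rno-miR-320-3p, rno-miR-423-5p, rno-miR-423-3p, rno-miR-484 and rno-miR-328a-3p, was followed across serum-derived EV libraries of rats with an injured Achilles tendon. They were chosen by name, and all 5 were found among the 426 miRs with at least 1 count. The question was how stable they were under rapamycin treatment and between day 7 and day 21 post-injury. Rapamycin is an inhibitor of mTOR, a kinase that drives cell growth.

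All animals were female wild-type Wistar rats, 12 weeks old, with a needle injury of the left Achilles tendon. Rapamycin day 7 and rapamycin day 21 animals received rapamycin at 2 mg/kg daily into the peritoneum, with 5 injections by day 7 and 19 by day 21. Vehicle day 7 and vehicle day 21 animals received the same volume of PEG and TWEEN 80 in water. Rapamycin was first dissolved in DMSO, which the paper does not list for the vehicle. Each of the 4 groups held 3 rats with 1 library each, and no serum of uninjured animals was sequenced. EVs were taken from serum by size exclusion alone, so co-eluting particles cannot be told apart from EVs, and the sample labels name the tissue as tendon although the design text describes serum EVs. The study's supplement lists 10 of the 12 libraries as carried forward, although its tables of called miRs state 3 animals per group. It gives no reason for leaving out the other 2, rapamycin day 7 replicate 2 and vehicle day 7 replicate 1. Those 2 stood apart, with 5.53 and 12.8 miR counts per calibrator spike-in count against 0.686 to 1.58 in the other 10. Total miR counts ran from 16327 to 95834 per library. Results are therefore given for all 12 libraries and again for the 10.

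A miR is cut from a hairpin RNA, first in the nucleus by Drosha and then in the cytoplasm by Dicer, and guides silencing of mRNAs that match its seed. The miR-320 precursor is transcribed directly as a short capped hairpin, and miR-484 likewise arises without Drosha. The miR-423 hairpin follows the usual route and yields stable products from both arms, miR-423-5p and miR-423-3p. Since no single transcript is a fixed standard in serum, miRs with a steady level are used as a reference, and a reference that moves shifts every miR measured against it.

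RefSeq sequences on the GRCr8 build were held here for 2 of the 5 miRs, an arm of the miR-423 hairpin and miR-484, whose spread between rats is described further on. They are shown 5′ to 3′ with the seed, bases 2 to 8, in capitals.
rno-miR-423-5p: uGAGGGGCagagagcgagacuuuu
rno-miR-484: uCAGGCUCaguccccucccgau
The first lies at chr10:62412317-62412340 and the second at chr10:1394915-1394936, both on the minus strand. Of 724 mature rat entries, 2 had the seed of miR-423-5p (0.276%) and 3 that of miR-484 (0.414%), each count including the miR itself. None of the others among these entries was in the count table. Only 385 of the 426 miRs counted had an entry, so the rest could not be checked for these seeds. The hairpins are shown because they place each product, with the mature miR in capitals.
Mir423 hairpin: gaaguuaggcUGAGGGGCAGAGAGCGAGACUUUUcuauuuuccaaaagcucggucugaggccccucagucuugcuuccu
Mir484 hairpin: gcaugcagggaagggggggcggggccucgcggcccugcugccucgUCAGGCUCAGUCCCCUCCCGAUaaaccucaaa
The product of Mir423 shown lies on its 5′ arm, bases 11 to 34 of 79, and that of Mir484 on the 3′ arm, bases 46 to 67 of 77. In the same assembly Mir423 lies inside Nsrp1 and Mir328 inside Elmo3, while Mir484 lies beside Marf1 and Mir320a beside Polr3d.

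The 5 miRs were of middle abundance, together 0.902% to 1.85% of the miR counts of a library, with a median of 1.44%. Levels are given as CPM, the share of a library's miR counts scaled to a common total by TMM, where 1 count is a read assigned to the mature miR, so no scaling to length applies. Sequences differ in how well they are captured during library preparation, so an order of counts is an order within these libraries. By mean CPM, miR-320-3p ranked 34th of the 426 miRs, miR-423-3p 46th, miR-423-5p 57th, miR-484 61st and miR-328a-3p 137th. The first 4 thus ranked 61st or higher by mean CPM, with no cutoff for abundant set, while miR-328a-3p had only 1 to 26 counts per library. Within single libraries miR-484 ranked from 45th to 105th.

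miR-320-3p stood at 4424, 6134 and 5571 CPM in the vehicle day 7 rats and at 6031, 3145 and 5838 CPM in the rapamycin day 7 rats. At day 21 it stood at 6345, 4975 and 5814 CPM with vehicle and at 4884, 7906 and 5501 CPM with rapamycin. The groups overlapped at both timepoints, and the lowest value was in one of the 2 libraries that stood apart. Its mean was 5547 ± 1157 CPM (SD, n = 12), from 77 to 528 counts.

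miR-423-3p stood at 1885, 4443 and 4212 CPM in the vehicle day 7 rats and at 3337, 1865 and 4304 CPM in the rapamycin day 7 rats. At day 21 it stood at 4867, 3932 and 4299 CPM with vehicle and at 6597, 4369 and 3850 CPM with rapamycin. The lowest 2 values were the 2 libraries that stood apart, and all others lay from 3337 CPM upward.

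The other arm, miR-423-5p, stood at 1558, 2373 and 2652 CPM in the vehicle day 7 rats and at 2970, 1141 and 3366 CPM in the rapamycin day 7 rats. At day 21 it stood at 2343, 2809 and 3152 CPM with vehicle and at 1649, 2538 and 2835 CPM with rapamycin. Its groups also overlapped at both timepoints, with a mean of 2449 ± 681 CPM (SD, n = 12).

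miR-484 stood at 821, 505 and 3298 CPM in the vehicle day 7 rats and at 2633, 956 and 2216 CPM in the rapamycin day 7 rats. At day 21 it stood at 1045, 2608 and 1474 CPM with vehicle and at 2918, 2621 and 2920 CPM with rapamycin. It spanned 6.53-fold from the lowest to the highest library, against 2.51-fold for miR-320-3p, 2.95-fold for miR-423-5p and 3.54-fold for miR-423-3p. Its highest and its lowest value were both in vehicle day 7 rats. At day 21 every rapamycin library lay above every vehicle library, by a gap of 2621 against 2608 CPM. Of the 74 miRs that reached 10 counts in each library, 4 of the 5 among them, 14.9% did not overlap between treatments at day 21 and 1.35% at day 7, where none of those 4 was among them.

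miR-328a-3p had 5, 6 and 26 counts in the vehicle day 7 rats, 7, 3 and 9 in the rapamycin day 7 rats, 5, 8 and 6 in the vehicle day 21 rats and 5, 1 and 3 in the rapamycin day 21 rats. A level of 3 counts, taken as the limit of what a library can show, equals 25.1 to 190.3 CPM, and 3 of the 12 libraries were at or below 3 counts. That limit covers counting error only, since without molecular identifiers reads may be copies of one molecule.

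**Figure D1:**
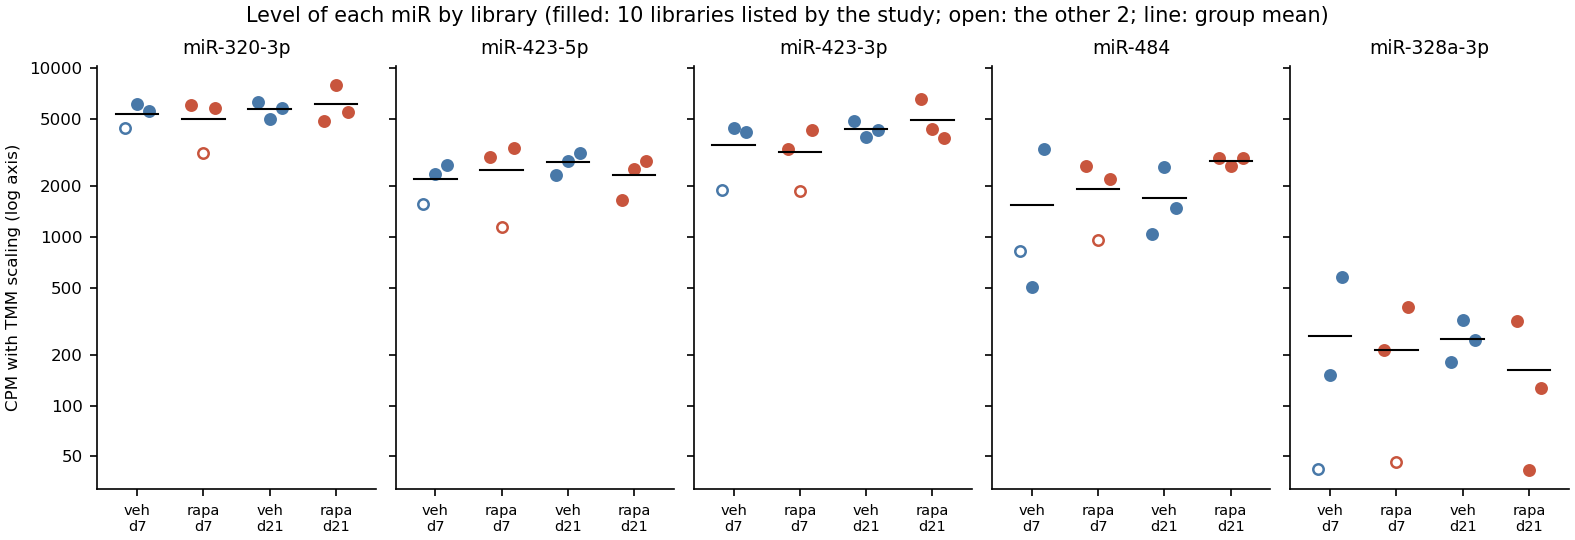
CPM with TMM scaling on a shared log axis for the 5 miRs, 1 point per library in the 4 groups (veh, vehicle; rapa, rapamycin; d7 and d21, timepoints), with a line at the group mean. The open points are the 2 libraries that stood apart, and miR-484 covers a wider range than miR-320-3p, 505 to 3298 against 3145 to 7906 CPM.

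The order of the first members held from library to library. miR-320-3p exceeded miR-423-5p and miR-484 in 12 of 12 libraries and miR-423-3p in 11 of 12, the exception being rapamycin day 21 replicate 1. miR-423-3p exceeded miR-423-5p in 12 of 12. Below them the order was not fixed, since miR-423-5p exceeded miR-484 in only 8 of 12. miR-328a-3p was the lowest in every library.

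The first comparison asked whether rapamycin treatment moved any of the 5 relative to vehicle at a timepoint. None was called DE at day 7 or at day 21 by edgeR's quasi-likelihood test, at an adjusted p under 0.05 over all 426 miRs. At day 7 the background was 0% of the 426 miRs in 12 libraries, with 8 at an unadjusted p under 0.05, and 0.548% of 365 in the 10. At day 21 it was 0% in both sets, where 12 miRs of the 12-library fit and 15 of the other had an unadjusted p under 0.05. In these fits, made without a filter, the 5 miRs were thus not set apart from a table in which few or no miRs were called. With low-abundance miRs filtered out before adjustment, 1 miR of the 12-library fit was called at day 7 and 0 at day 21. The study used such a filter, by its supplement with the 10 libraries, and reported several miRs as called between treatments, none of them among these 5.

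At day 7, rapamycin against vehicle gave log2 fold changes of -0.11 for miR-320-3p (95% interval -1.09 to 0.88), 0.18 for miR-423-5p (-0.90 to 1.25) and -0.15 for miR-423-3p (-1.17 to 0.87). For miR-484 it was 0.32 (-0.79 to 1.44) and for miR-328a-3p -0.30 (-2.33 to 1.74). The adjusted p was 1 for each. Single vehicle rats moved the value for miR-484, to 0.04 without vehicle day 7 replicate 1, -0.09 without vehicle day 7 replicate 2 and 1.49 without vehicle day 7 replicate 3. miR-328a-3p changed sign without the latter, to 1.15.

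At day 21 the log2 fold changes were 0.10 for miR-320-3p (95% interval -0.90 to 1.09), -0.24 for miR-423-5p (-1.32 to 0.85), 0.18 for miR-423-3p (-0.85 to 1.2) and -0.67 for miR-328a-3p (-2.86 to 1.51). The value for miR-484 was the largest of the 5, 0.72 with a standard error of 0.58 (-0.41 to 1.85; unadjusted p = 0.211 and adjusted p = 1 by edgeR). In the 10 libraries it was 0.87 (-0.04 to 1.78; unadjusted p = 0.0615 and adjusted p = 1 by edgeR), and without vehicle day 21 replicate 2 it was 1.3. The higher values of miR-484 with rapamycin at day 21 therefore did not pass the test.

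With timepoint as a blocking factor, 0 of the 5 were called, against a background of 0% in 12 libraries and 0.548% in the 10. Of all 426 miRs, 15 had an unadjusted p under 0.05, and none of the 5 was among them. The log2 fold change was -0.01 for miR-320-3p, -0.03 for miR-423-5p and 0.01 for miR-423-3p. It was 0.52 for miR-484 (standard error 0.40, unadjusted p = 0.193 by edgeR) and -0.47 for miR-328a-3p. miR-484 reached 1.14 without vehicle day 7 replicate 3, with an unadjusted p of 0.00929 and an adjusted p of 0.991 by edgeR. No member was called in the interaction of treatment and timepoint either, where the background was 0% in 12 libraries and 0.274% in the 10, with 14 of 426 miRs at an unadjusted p under 0.05. DESeq2 and limma-voom called 0 of the 5 in each comparison, and 0 of the 5 had an unadjusted p under 0.05 with either. Of all 426 miRs, limma-voom also called 0 in each comparison. DESeq2 called 0 of them in the treatment and interaction comparisons and 5 between day 7 and day 21.

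The study also allows day 21 to be set against day 7 with treatment as a block. Here 3.52% of the 426 miRs were called in 12 libraries and 0.274% in the 10, and none of the 5. The log2 difference, day 21 minus day 7, was 0.19 for miR-320-3p, 0.13 for miR-423-5p, 0.48 for miR-423-3p, 0.35 for miR-484 and -0.19 for miR-328a-3p. The median over the 74 miRs was 0.13 on this scale. The value for miR-423-3p was 0.23 in the 10 libraries and that for miR-484 was 0.09. Single rats moved miR-484 both ways here too, to 0.18 without vehicle day 7 replicate 2 and to 0.92 without vehicle day 7 replicate 3 (unadjusted p = 0.0342 and adjusted p = 0.249 by edgeR).

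A p above the threshold does not show that a level was stable, so the 95% intervals were set against a margin of 1 on the log2 scale, a doubling or halving. With timepoint as a block, the intervals of miR-320-3p (-0.69 to 0.68), miR-423-5p (-0.78 to 0.73) and miR-423-3p (-0.70 to 0.72) lay within it. Those of miR-484 (-0.26 to 1.31) and miR-328a-3p (-1.91 to 0.96) did not. The same 3 lay within the margin in the 10 libraries. Of the 74 miRs above, 62.2% lay within it in this comparison, so lying within it was common. At a single timepoint no member's interval lay within the margin in 12 libraries, where 13.5% of the 74 miRs lay within it at day 7 and 4.05% at day 21. In the 10 libraries miR-320-3p lay within it at day 7, beside 24.3% of the 74, and miR-320-3p and miR-423-5p at day 21, beside 40.5%. miR-320-3p also lay within it at day 7 in 12 libraries with DESeq2 size factors, library totals, filterByExpr or limma-voom. Between days, miR-320-3p and miR-423-5p lay within it, beside 37.8% of the 74. That count was 4 in the 10 libraries, miR-423-3p and miR-484 added, beside 77.0% of the 74, and 0 without rapamycin day 7 replicate 1. With calibrator counts as the library size, no member lay within the margin in any comparison.

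**Figure D2:**
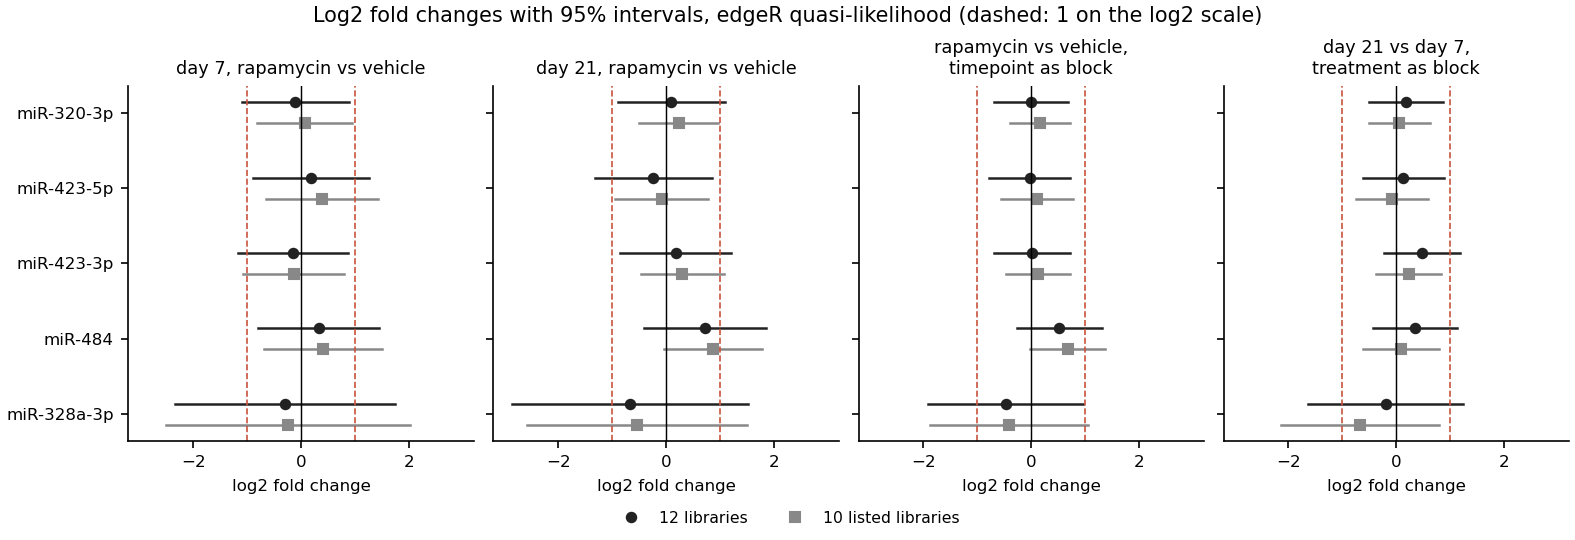
Log2 fold changes of the 5 miRs with 95% intervals by edgeR in 4 comparisons, in all 12 libraries (circles) and in the 10 listed by the study (squares), with dashed lines at 1 on the log2 scale either way. With timepoint as a block, the intervals of miR-320-3p, miR-423-5p and miR-423-3p lie between the dashed lines and those of miR-484 and miR-328a-3p cross one.

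Relative to the other miRs, miR-484 varied more between rats of one group than miR-320-3p and both arms of miR-423. The SD within groups, on the log2 CPM scale, was 0.35 for miR-320-3p, 0.51 for miR-423-3p, 0.52 for miR-423-5p and 0.86 for miR-484, beside a median of 0.58 over the 74 miRs. From the smallest upward, these ranked 10th, 29th, 30th and 60th of 74. Counting alone would give an SD of 0.11, 0.13, 0.17 and 0.20 in that order, below the measured spread of each. For miR-328a-3p, which had too few counts to be ranked, the SD within groups was 1.35 and the counting SD 0.66. These differences depended on the scaling. Per calibrator count, the SD within groups was 1.08 for miR-320-3p (35th of 74), 0.81 for miR-423-3p (17th), 0.94 for miR-423-5p (25th) and 1.15 for miR-484 (38th), beside a median of 1.13.

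Without the 2 libraries that stood apart, the SD within groups was 0.24 for miR-320-3p, 0.24 for miR-423-3p and 0.33 for miR-423-5p, beside a median of 0.41. For miR-484 it was 0.86, which ranked 68th of 75. Leaving out each library in turn, miR-320-3p ran from 0.25 to 0.38 and miR-484 from 0.58 to 0.92. The value of 0.58 came without vehicle day 7 replicate 3, where miR-484 ranked 40th of 74, beside a median of 0.56. Its high spread within groups thus depended in part on 1 rat. Within vehicle groups the SD of miR-484 was 1.09 and within rapamycin groups 0.56. For miR-320-3p the order was the other way, 0.21 and 0.45. Vehicle exceeded rapamycin in 44 of the 74 miRs, and none of these differences in spread was tested.

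**Figure D3:**
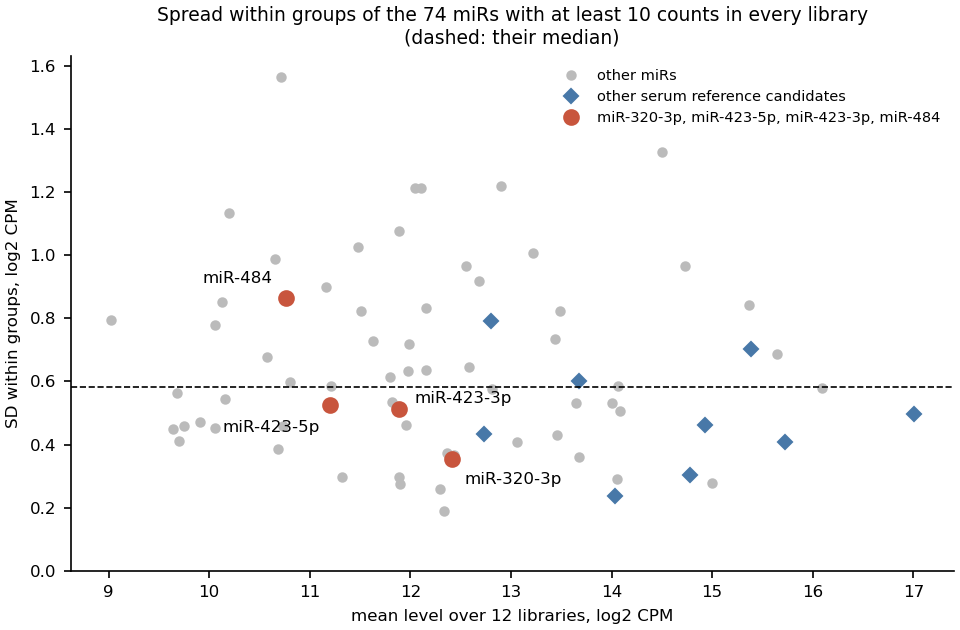
SD within the 4 groups on the log2 CPM scale against mean level for the 74 miRs that reached 10 counts in each library, with the 4 of the 5 miRs that are in this set in red, other serum reference candidates as diamonds and the median as a dashed line. miR-320-3p (0.35) and both arms of miR-423 (0.51 and 0.52) lie below the median of 0.58 and miR-484 (0.86) above it.

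A measure that needs no library scaling is the mean SD of a miR's log2 ratio to every other miR (M, after geNorm), where a low value marks a miR that keeps its proportion to the rest. M was 0.68 for miR-320-3p, the 4th lowest of 74. It was 0.73 for both miR-423-5p and miR-423-3p, 16th and 18th, and 1.06 for miR-484, 62nd, beside a median of 0.84. In the 10 libraries miR-320-3p was again 4th, at 0.53, and miR-484 71st of 75, at 1.01. The rank of miR-320-3p stayed between 3 and 5 when any library was left out. That of miR-423-3p ran from 6 to 21 and that of miR-423-5p from 13 to 23. The rank of miR-484 ran from 41, without vehicle day 7 replicate 2, to 70.

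Other miRs used as serum references gave a scale for these values. Of 12 listed, all were in the table and 9 could be ranked. In the fit of all 12 libraries by edgeR, 0 of them were called in any of the treatment or day comparisons. The study's own fit did call miR-191a-5p of this list, lower with rapamycin at day 7. miR-103-3p had the lowest M of all 74, 0.65, and an SD within groups of 0.30. miR-23a-3p had an M of 0.70 and the smallest SD over all 12 libraries, 0.21. miR-16-5p, which is rich in erythrocytes, had an M of 0.79, and miR-191a-5p, the most abundant miR of the table, 0.73. The M of miR-320-3p lay between those of miR-103-3p and miR-23a-3p, and the M of both miR-423 arms was near that of miR-191a-5p.

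Ratios between members within a library, here with 0.5 added to each count, do not depend on scaling. The ratio of miR-320-3p to miR-423-5p had the smallest SD of the 10 pairs, 0.31 on the log2 scale, with a median ratio of 2.32 and a range of 1.73 to 3.10. Of the 2701 pairs among the 74 miRs, 2.30% had a smaller SD, and the median over those pairs was 0.83. This pair was picked as the smallest of several, which by itself favours a low place. The SD was 0.40 for miR-320-3p to miR-423-3p and 0.48 between the arms of miR-423. Pairs with miR-484 were near the median of all pairs, at 0.80 to 0.87. The ratio of miR-320-3p to miR-484 ran from 1.67 to 11.9.

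The arms of miR-423 come from one hairpin, so their ratio does not depend on how much of it is transcribed. miR-423-5p per miR-423-3p count was 0.827, 0.534 and 0.630 in the vehicle day 7 rats and 0.890, 0.612 and 0.782 in the rapamycin day 7 rats. At day 21 it was 0.481, 0.714 and 0.733 with vehicle and 0.250, 0.581 and 0.736 with rapamycin. The 5p arm was the minor one in every library, and rapamycin day 21 replicate 1, with 26 counts of the 5p and 104 of the 3p arm, was lower than all others. Rapamycin minus vehicle, the log2 ratio differed by -0.10 within timepoints (exact permutation test, two-sided, p = 0.80), which is smaller than its SD of 0.48. Day 21 minus day 7 it differed by -0.35 (exact permutation test, p = 0.255).

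In none of the 10 ratios did the treatments differ at an adjusted p under 0.05, where p was adjusted over the 10 ratios by Benjamini-Hochberg. The test permuted treatment labels within timepoints over 400 arrangements, which allow a p of 0.005. The largest differences were in ratios with miR-484, each with miR-484 the higher with rapamycin. miR-484 to miR-328a-3p differed by a log2 of 1.13 (exact permutation test, p = 0.075, adjusted p = 0.362), and miR-423-5p to miR-484 by -0.84 (exact permutation test, p = 0.08, adjusted p = 0.362). The remaining pairs with miR-484 gave -0.78 with miR-320-3p (exact permutation test, p = 0.125) and -0.74 with miR-423-3p (exact permutation test, p = 0.145). Between the other 3 of these miRs, differences were 0.06, -0.05 and -0.10. Leaving out each library in turn, the smallest p between treatments was 0.005, for miR-423-5p to miR-484 (exact permutation test, adjusted p = 0.05). In the same runs miR-484 was set against the mean of the other 4 members. Its p ran from 0.01 to 0.105 (exact permutation test, smallest adjusted p = 0.05). Over the 10 libraries, the ratio of miR-484 to miR-328a-3p differed by 1.29 (exact permutation test, p = 0.0333, adjusted p = 0.333). Between days, the smallest adjusted p of the 10 ratios was 0.958 by the same exact test.

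**Figure D4:**
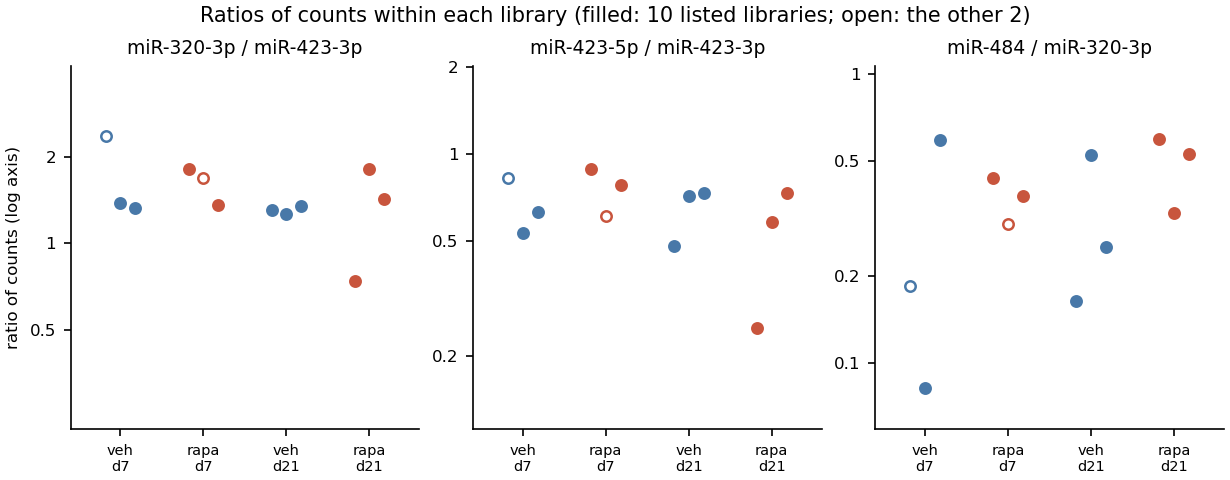
Ratios of counts within each library on log axes for miR-320-3p to miR-423-3p, miR-423-5p to miR-423-3p and miR-484 to miR-320-3p, 1 point per library, with open points for the 2 libraries that stood apart. The arms of miR-423 lie between 0.250 and 0.890, and miR-484 to miR-320-3p runs from 0.0823 to 0.597, lowest in vehicle day 7 replicate 2 and highest in rapamycin day 21 replicate 1.

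Calibrator spike-ins are synthetic RNAs of which each sample received the same amount, so a level set against them is not relative to other miRs. In counts per 1000 calibrator counts, miR-320-3p stood at 3.23 to 9.18 in the 10 libraries and at 21.9 and 70.3 in the 2 that stood apart. miR-423-3p stood at 3.72 to 6.56 and at 13.0 and 29.9, miR-423-5p at 1.09 to 4.47 and at 7.96 and 24.8, and miR-484 at 0.745 to 4.56 and at 6.67 and 13.0. All 4 were thus higher per calibrator in both libraries that stood apart than in any other. miR-328a-3p, at 0.323 and 0.665 there and 0.0483 to 0.80 in the 10, was not. Those 2 libraries were set apart by their total miR counts per calibrator. Higher levels of single miRs there thus follow in large part from that choice and are no trait of these members.

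Rapamycin minus vehicle, within timepoints, the log2 level per calibrator differed by -0.43 for miR-320-3p, -0.48 for miR-423-5p, -0.38 for miR-423-3p, 0.35 for miR-484 and -0.78 for miR-328a-3p. The unadjusted p by the exact permutation test ran from 0.06, for miR-328a-3p, to 0.625. Day 21 was lower than day 7 for all 5, by a log2 of -0.83 for miR-484 to -1.23 for miR-423-5p. The p by exact permutation test was 0.005 for miR-423-5p, the smallest that 400 arrangements allow, 0.025 for miR-328a-3p, 0.045 for both miR-320-3p and miR-423-3p and 0.23 for miR-484. Both libraries that stood apart are of day 7, and without them 4 of the 5 differences were smaller by over 1.5 times: -0.60 for miR-423-5p (exact permutation test, p = 0.03), -0.45 for miR-320-3p (exact permutation test, p = 0.21), -0.26 for miR-423-3p and -0.17 for miR-484. The exception was miR-328a-3p, at -1.08 (exact permutation test, p = 0.08). The fall was not particular to these miRs, as each of the 74 miRs was lower at day 21 per calibrator, by a median of -1.27, and 72 of them in the 10 libraries, by a median of -0.45. With calibrator counts as the library size, edgeR called none of the 5 between days, with an adjusted p from 0.0972 to 0.411 over all miRs, against a background of 115 of 426 miRs called (27.0%).

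**Figure D5:**
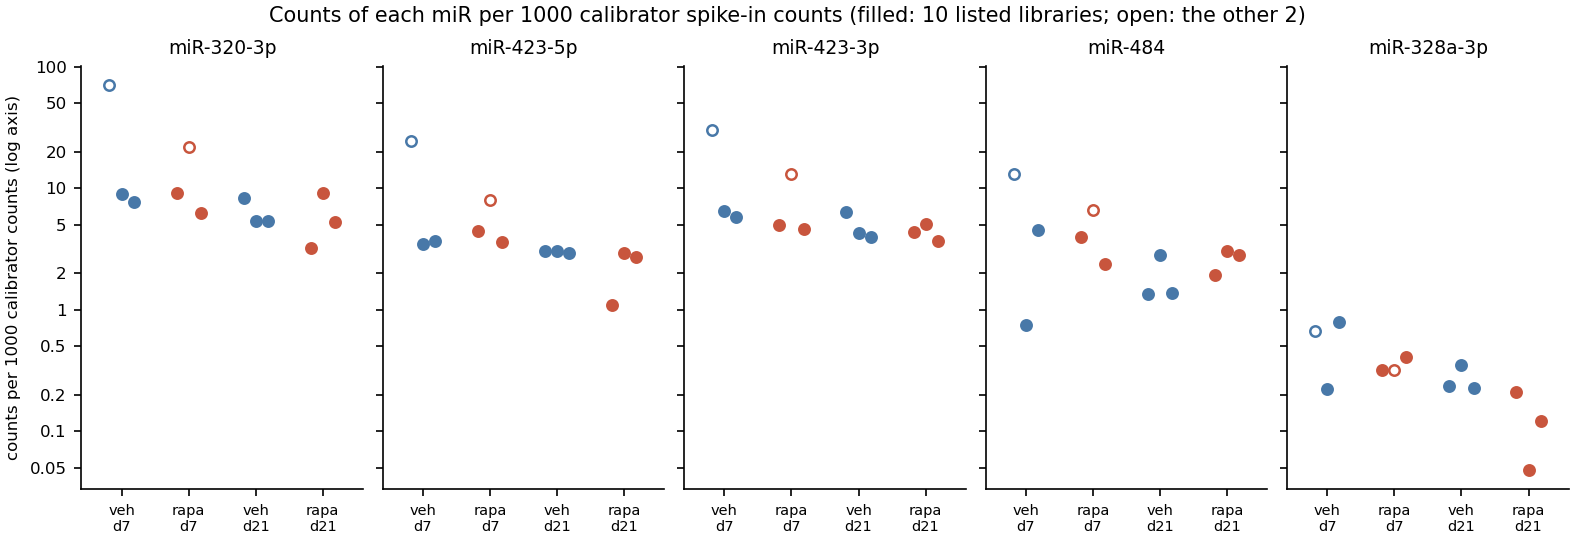
Counts of the 5 miRs per 1000 calibrator spike-in counts on a shared log axis, 1 point per library in the 4 groups. Open points are the 2 libraries that stood apart, which were set apart by total miR counts per calibrator. For miR-320-3p the open points lie at 21.9 and 70.3 and all others at 3.23 to 9.18.

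Taken as a reference, the mean log2 CPM of miR-320-3p, miR-423-5p, miR-423-3p and miR-484 ran over 1.29 between its lowest and highest library. Its SD was 0.43 over the 12 libraries and 0.21 over the 10 of them. The libraries that stood apart were both low, at -0.93 and -0.74 from the mean, so a miR divided by this reference would be raised there. The mean of miR-320-3p and both miR-423 arms alone, a set chosen after the values were seen, ran from 0.06 to 0.29 in the 10 libraries with an SD of 0.08, and from -0.95 to -0.63 in the other 2. By group it was -0.12 with vehicle and -0.19 with rapamycin at day 7, and 0.17 and 0.15 at day 21.

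For each member, the 3 other miRs with the steadiest log2 ratio to it over the 12 libraries were found among 70. For miR-320-3p these were miR-140-3p (SD of the log2 ratio 0.21), miR-19b-3p (0.23) and miR-107-3p (0.25), beside a median of 0.65. For miR-423-5p they were miR-103-3p (0.32), miR-107-3p (0.32) and miR-15a-5p (0.38). For miR-423-3p they were miR-15a-5p (0.27), miR-652-3p (0.29) and miR-107-3p (0.29). Thus miR-107-3p was among the 3 nearest for miR-320-3p and for both arms of miR-423.

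miR-484 had no neighbour as close. Its nearest were miR-144-3p (0.57), miR-19a-3p (0.67) and miR-16-5p (0.70), beside a median of 1.02, and the first and last of these are on the erythrocyte list. miR-328a-3p, with its low counts, was nearest to miR-142-5p (0.59), miR-142-3p (0.66) and miR-21-5p (0.77), beside a median of 1.14. The first pair are leukocyte miRs.

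Markers of blood cells, liver and muscle were all read in these EVs. The 5 erythrocyte miRs, led by miR-451-5p, summed to 27070 to 156307 CPM in vehicle day 7, 60308 to 143858 in rapamycin day 7, 119015 to 197930 in vehicle day 21 and 143301 to 195228 in rapamycin day 21 rats. The lowest 2 sums were in the 2 libraries that stood apart. Among vehicle day 7 rats, the sum was 27070, 114629 and 156307 CPM where miR-484 stood at 821, 505 and 3298 CPM. Among vehicle day 21 rats it was 123758, 197930 and 119015 CPM where miR-484 stood at 1045, 2608 and 1474 CPM. In rapamycin day 7 rats the sum was 143858, 60308 and 128470 CPM where miR-484 stood at 2633, 956 and 2216 CPM. In rapamycin day 21 rats it was 191060, 143301 and 195228 CPM where miR-484 stood at 2918, 2621 and 2920 CPM. The order of the 3 rats was thus the same for both measures in each rapamycin group and not in either vehicle group. The part of blood cell RNA in the level of miR-484 was not tested. The platelet and leukocyte list summed to 17544 to 57005 CPM over all libraries.

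Of the 5 erythrocyte and 5 platelet and leukocyte miRs, 0 were called by edgeR in the 12 libraries, between treatments or between days. The study's own fit did call miR-150-5p and miR-142-3p of the latter list, both lower with rapamycin at day 7. The hepatocyte and muscle lists each held 1 miR that fell between day 7 and day 21 by edgeR over all miRs, miR-122-5p by 1.84 on the log2 scale (adjusted p = 0.000149) and miR-133a-3p by 1.91 (adjusted p = 0.0127). In the 10 libraries rno-miR-122-5p fell by 1.54 (adjusted p = 0.00138), while rno-miR-133a-3p was at 0.25 and was not called (adjusted p = 0.948). Between treatments, neither was called in the 12 libraries. The study's own fit did call both higher with rapamycin, miR-122-5p at day 7 and miR-133a-3p with timepoint as a block. The muscle list summed to 8839 CPM in vehicle day 7 replicate 1 and to 0 to 1872 CPM elsewhere. In bulk libraries of this kind, fewer EVs of a source and less RNA per EV cannot be told apart.

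Other miRs made without Drosha were nearly absent. miR-877 had 9 counts over all 12 libraries, and miR-320-5p, the other arm of the miR-320 hairpin, and miR-702-5p had 1 count each. The list of 7, which includes miR-320-3p and miR-484 themselves, had 5 in the table. Of these, 0 were called between treatments or days in the fit of all 12 libraries. Apart from those members, the miRs of the list had too few counts for a call to be likely. Of the other arms and relatives of miR-320 and miR-328, miR-320-5p was the only one of 4 in the table. miR-320-3p and miR-484, which share a Drosha-free origin, had an SD within groups of 0.35 and 0.86 on the log2 CPM scale but of 1.08 and 1.15 per calibrator count, and the SD of their log2 ratio was 0.87.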

How the data were processed

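Serum EV RNA of 12 rats was sequenced as small RNA with spike-ins. The authors deposited read counts per mature miR without normalization, made with the miND pipeline (cutadapt v3.3, Bowtie v1.3.0, miRDeep2, rat genome mRatBN7.2, miRBase). Per-sample columns were all matched to the labels. The 7 calibrator and 3 other spike-ins were kept out of the miR totals and tests; they took 13.6% to 71.8% of the counts in a library. Total miR counts were 16327 to 95834, and counting error alone is given as a counting SD.

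The counts were fitted with edgeR v4.0.16 (quasi-likelihood, TMM, no filter, R v4.3.3) on all 426 miRs and 12 libraries, with p adjusted over all miRs by Benjamini-Hochberg and called at 0.05. The study fitted 10 libraries with independent filtering. Here the 10 libraries and independent filtering over all 12 were separate alternatives and were not combined. The study's setting as its supplement gives it was thus not refitted. Further alternatives were DESeq2 v1.42.0, limma v3.58.1, other scalings and leaving out each library. Ratios (0.5 added to counts) and levels per calibrator were tested by two-sided exact permutation tests. Scripts were tested on simulated data. No 2 replicates of a group agreed within counting noise (chi-square per degree of freedom 13.2 to 331), and each was counted as 1 sample.

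The 5 miRs and all lists were chosen with earlier results of these data known. Named beside them were the 3 miRs of at least 10 counts in every library with the smallest SD of the log2 ratio to each, and up to 4 of each list. Replicates were separate rats. miR-103-3p and miR-107-3p differ by little sequence and could share reads.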

Additional observations from a re-analysis of the deposited data

How the results depend on the processing

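None of the 5 miRs was called in any of the 5 comparisons under the 22 alternatives fitted, of which filterByExpr left out miR-328a-3p and so covered 4. Over all miRs, these alternatives called only 0 to 2 in each treatment or interaction comparison. Between days they called 0 to 115, the most with calibrators as the library size. A count of 0 members was thus near the background for treatment. Of 545 recomputed log2 fold changes, 75 had the other sign, 64 of them with a reported value within 0.3 of 0, and 22 moved by over 1 standard error, 15 of these with calibrators as the library size. The smallest adjusted p was 0.0972, for miR-320-3p between days with calibrators. The count of members with an SD within groups below the median was 3 of 4, and 2 to 3 when a library was left out. The number of members whose level per calibrator differed between days, at a p adjusted over the 5, was 1, and it was 0 in the 10 libraries and 0 to 5 when a library was left out, reaching 5 without vehicle day 7 replicate 2. The same count for treatment was 0, and 0 to 1 when a library was left out, with miR-328a-3p the one without vehicle day 7 replicate 2. The cause was not tested.

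Replicate numbers did not pair the samples. Deviations from group means correlated from -0.78 to 0.32 in the 6 same-numbered pairs, and 1 of 12 libraries correlated best with its own number. With a replicate block, 0 members were called in any comparison, beside 0 of 426 miRs in the treatment and interaction comparisons and 10 between days. In the 10 libraries the block, an alternative added after seeing the data, also gave 0, beside 0 to 1 of 365 miRs per comparison. Exchanging treatment within pairs gave 0 of 10 ratios, but its 64 arrangements allow no exact p under 0.03125, so a lone ratio could not pass the adjustment over 10. miR-328a-3p, at 1 to 26 counts, is limited by depth.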
